A study of Mus musculus with 8 samples.

Results

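The genes described here are the 10 mouse genes of MHC class II antigen presentation: the chains H2-Aa, H2-Ab1 and H2-Eb1, the invariant chain Cd74, the co-activator Ciita, the peptide-loading factors H2-DMa, H2-DMb1 and H2-DMb2, and their inhibitors H2-Oa and H2-Ob. They were found by symbol, as a list drawn up with earlier results of these data known, and each had 1 row among the 21859 gene rows of the count files. Of the 10, 9 had enough reads to be tested and H2-Oa did not. Whole aortas of 4 ApoE-/- mice, which lack apolipoprotein E in every cell and develop atherosclerotic plaques, were compared with those of 4 wild-type (WT) C57BL/6 mice. The study describes its ApoE-/- line as being on the C57BL/6 background too. Every animal was male, 40 weeks old and on a normal (chow) diet, and the labels name no other allele and no agent. Each mouse gave 1 RNA-Seq library, so n is the number of mice. An aorta prepared whole contains smooth muscle, endothelium, surrounding fat and any immune cells present, and in such bulk RNA more cells of a type cannot be told apart from more RNA per cell.

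MHC class II molecules display peptides from ingested proteins to CD4+ T cells. Dendritic cells, B cells and activated macrophages are the classical cells that make them, and interferon gamma induces them in many others. An alpha and a beta chain pair in the endoplasmic reticulum around the invariant chain, which blocks the groove and guides the pair to lysosomes. There, cathepsins and other proteases trim the invariant chain to a short remnant, H2-DM exchanges the remnant for peptide, and H2-O, found mainly in B cells, restrains H2-DM. Ciita binds no DNA itself: it docks on a complex of RFX, CREB and NF-Y proteins that sits on the X and Y boxes of class II promoters. C57BL/6 mice carry the b haplotype, in which H2-Ab1 and H2-Aa encode the I-A molecule, while H2-Ea is not expressed and the H2-Eb1 product finds no partner. A row for the defective H2-Ea gene was not analysed here.

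All 8 H2 genes lay in 1 block of chromosome 17, from 34092340 to 34316674 (GRCm38, GENCODE M21). Ciita (chromosome 16, 10480059 to 10528418, plus strand) and Cd74 lay elsewhere. RefSeq promoter sequence (GRCm38.p6, 250 bases before to 50 after a transcript start) was given for 7 of the 10 genes and not for H2-Ab1, Cd74 and Ciita. The letters GATTGG, the core of the Y box, were searched on both strands, alone and with the X box letters GNAAC beginning 25 to 40 bases before them, in a form chosen after these promoters had been read. GATTGG stood on the strand of the gene in all 7, although in H2-DMa only upstream of the second of its 2 starts, and on either strand in 16.1% of all 32851 promoters. The pair stood on the gene's strand in 5 of the 7, with 29 to 32 bases between the first letters of the motifs, and in 0.457% of all promoters on the gene's strand (0.922% on either strand). The stretch from 130 to 21 bases before the RefSeq start is shown for 5 genes so that the shared arrangement can be read, with GNAAC and GATTGG in capitals.

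H2-Aa (chr17:34287844-34287953, minus strand): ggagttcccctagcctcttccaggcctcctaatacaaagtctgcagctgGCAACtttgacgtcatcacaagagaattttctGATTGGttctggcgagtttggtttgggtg
H2-Eb1 (chr17:34305737-34305846, plus strand): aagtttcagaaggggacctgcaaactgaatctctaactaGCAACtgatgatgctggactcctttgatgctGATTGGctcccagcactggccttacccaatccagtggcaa
H2-Ob (chr17:34238775-34238884, plus strand): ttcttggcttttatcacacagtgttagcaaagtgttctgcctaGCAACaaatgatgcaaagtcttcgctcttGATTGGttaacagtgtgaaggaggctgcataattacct
H2-Oa (chr17:34092249-34092358, plus strand): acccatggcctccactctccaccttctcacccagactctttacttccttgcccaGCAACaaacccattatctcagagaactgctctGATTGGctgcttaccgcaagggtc
H2-DMb2 (chr17:34145119-34145228, plus strand): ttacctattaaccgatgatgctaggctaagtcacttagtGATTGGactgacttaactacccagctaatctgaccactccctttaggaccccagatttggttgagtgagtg

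The first 4 of these stretches held both motifs, and that of H2-DMb2 held GATTGG alone, at -91, and lies in an intron of a longer H2-DMb2 transcript of GENCODE M21 that starts further upstream. H2-DMb1, the fifth gene with the pair, had GTAAC at -94 and GATTGG at -62. In H2-Aa the pair began at -81 and -49, in H2-Eb1 at -91 and -60, in H2-Ob at -87 and -58 and in H2-Oa at -76 and -44. A match of letters is a description of the sequence and says nothing of whether a protein was bound there in these aortas.

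Between 23240995 and 23940156 read pairs were counted on genes in ApoE-/- libraries and between 18375898 and 21664598 in WT libraries, or 32.3% to 35.6% and 27.9% to 30.2% of all pairs in the files. Neither range overlapped between the genotypes, and the part of this difference in the class II results was not tested. The values below are CPM, the read pairs on a gene scaled to a common library size with TMM factors, and fold changes come from the quasi-likelihood test of edgeR with Benjamini-Hochberg adjustment over all 15077 genes tested. Apoe itself lay between 14.7 and 36.3 CPM in ApoE-/- and between 536 and 857 CPM in WT aortas, in the direction of the labels. The library of ApoE-/- mouse 1 stood apart from the other ApoE-/- libraries, with 4257 CPM in 4 smooth muscle genes against at least 9679 in each of the other 7 mice, and without it the genes called over the whole table went from 70 to 593.

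The class II chains were higher in mean in ApoE-/- aortas, and none passed the adjusted threshold in edgeR. H2-Aa, the I-A alpha chain, was measured at 131, 98.7, 88.2 and 204 CPM in ApoE-/- mice 1 to 4 and at 90.1, 76.2, 52.5 and 78.1 CPM in WT mice 1 to 4. ApoE-/- mouse 4 was highest, and ApoE-/- mouse 3 fell just below WT mouse 1, so the groups overlapped at 1 pair of mice. This amounted to 0.81 ± 0.29 (SE) as a log2 fold change, or 1.76-fold, with an edgeR adjusted p of 0.294.

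H2-Ab1, the I-A beta chain, was measured at 72.0, 60.1, 53.2 and 111 CPM in ApoE-/- and at 48.4, 41.1, 30.7 and 45.6 CPM in WT mice. All 4 ApoE-/- aortas were above all 4 WT aortas. Its log2 fold change was 0.84 ± 0.25 (edgeR adjusted p = 0.203), with an adjusted p of 0.0449 in DESeq2, the program the study names. H2-Eb1, the I-E beta chain, was measured at 78.9, 58.5, 57.5 and 122 CPM in ApoE-/- and at 63.9, 47.1, 34.6 and 54.6 CPM in WT mice. The groups overlapped, since WT mouse 1 exceeded ApoE-/- mice 2 and 3. With a log2 fold change of 0.66 ± 0.29 (edgeR adjusted p = 0.43; DESeq2 0.286) it had the smallest difference and the largest adjusted p of the 9 genes tested.

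Cd74, the invariant chain, lies on chromosome 18, from 60803848 to 60812652 on the plus strand, and was the most abundant of the 10 genes. Its level was 210 CPM, 169, 189 and 354 in ApoE-/- mice 1 to 4 and 168, 129, 101 and 151 CPM in WT mice 1 to 4. The groups did not overlap, but ApoE-/- mouse 2 and WT mouse 1 were separated by less than 1 CPM. The log2 fold change was 0.75 ± 0.27 (edgeR adjusted p = 0.299; DESeq2 0.12).

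Ciita, which sets how strongly class II promoters are used, was measured at 18.3, 19.5, 16.1 and 16.8 CPM in ApoE-/- and at 14.0, 10.95, 8.31 and 9.77 CPM in WT mice. All 4 ApoE-/- aortas were above all 4 WT aortas, and among ApoE-/- mice Ciita varied least of the 10 genes, with a coefficient of variation of 8.76%. The same measure was 35.1% to 40.0% for the 3 chains and Cd74. In WT mice Ciita did not differ from them in this way, at 22.6% beside 18.7% to 24.8%. ApoE-/- mouse 4, highest for each chain, was below mice 1 and 2 for Ciita. The log2 fold change was 0.72 ± 0.17, with the smallest p of the members (edgeR adjusted p = 0.113; DESeq2 0.00821), and ranked 382 by p among the 15077 genes.

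H2-DM, the peptide exchanger, is a pair of an alpha chain (H2-DMa) and a beta chain (H2-DMb1 or H2-DMb2). H2-DMa was measured at 15.9, 6.47, 8.19 and 13.1 CPM in ApoE-/- and at 7.07, 6.88, 4.88 and 6.37 CPM in WT mice. ApoE-/- mouse 2 lay within the WT range. The log2 fold change was 0.79 ± 0.29 (edgeR adjusted p = 0.329; DESeq2 0.175). Exons of H2-DMa share 360 bp with exons of Brd2 on the opposite strand.

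H2-DMb1 was measured at 4.91, 6.12, 5.79 and 12.0 CPM in ApoE-/- and at 4.45, 4.82, 2.71 and 3.35 CPM in WT mice. The groups did not overlap, by less than 0.1 CPM, and ApoE-/- mouse 4 stood far above the others. The log2 fold change was 0.91 ± 0.33 (edgeR adjusted p = 0.311; DESeq2 0.163). H2-DMb2, a neighbouring copy, was measured at 1.38, 0.918, 1.48 and 1.13 CPM in ApoE-/- and at 0.688, 0.562, 0.665 and 0.622 CPM in WT mice. Every ApoE-/- aorta was above every WT aorta. The log2 fold change was 0.95 ± 0.23 (edgeR adjusted p = 0.121; DESeq2 0.138). The copies share 369 stretches of 50 bases, 22.7% of those in the transcripts of H2-DMb1, so reads in these stretches cannot be assigned to one of them and the split between the copies is uncertain.

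H2-O, the restrainer of H2-DM, was scarce. In mean CPM H2-Oa was the lowest of the 10 genes in both genotypes, while H2-Ob was above H2-DMb2. H2-Oa, its alpha chain, had 32, 8, 13 and 15 counts in ApoE-/- and 5, 5, 1 and 5 counts in WT mice, or 1.30, 0.350, 0.566 and 0.651 CPM against 0.229, 0.234, 0.0554 and 0.239 CPM. All ApoE-/- values were above all WT values, and ApoE-/- mouse 1 was highest. Too few reads left it out of the test. With every detected gene tested instead, its log2 fold change was 1.86 ± 0.54 (edgeR adjusted p = 0.204). An antisense gene, BC051537, shares 321 bp with its exons.

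H2-Ob, the beta chain, was measured at 4.46, 1.88, 4.62 and 2.08 CPM in ApoE-/- and at 2.16, 1.03, 1.16 and 1.63 CPM in WT mice. ApoE-/- mice 1 and 3 were high, and ApoE-/- mice 2 and 4 lay within the WT range. Its log2 fold change, 1.12 ± 0.39 (edgeR adjusted p = 0.294; DESeq2 0.153), was the largest of the 9 genes tested.

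**Figure D1:**
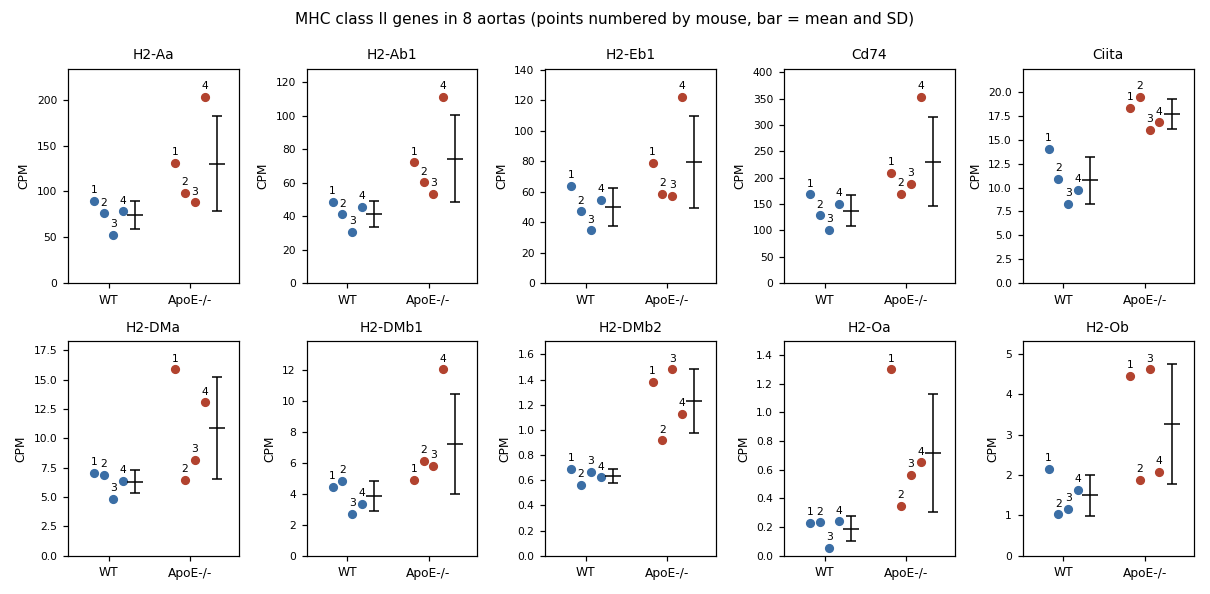
Scaled counts (CPM, y axis from 0, a separate scale in each panel) of the 10 class II genes in WT (blue) and ApoE-/- (red) aortas. Points are mice with their replicate numbers, and black bars give the mean and SD of 4 mice. ApoE-/- mouse 4 was highest for the chains and Cd74, whereas Ciita lay between 16.1 and 19.5 CPM in all ApoE-/- mice and H2-Ob was high in mice 1 and 3.

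Taken as a list, all 10 genes were higher in mean in ApoE-/- aortas, and 0 of the 9 tested passed the edgeR threshold, where 0.371% of all genes were called higher and 0.464% called in either direction. All 9 had an unadjusted p under 0.05 and were higher, against 7.19% of all genes. DESeq2 called 2 of the 9, H2-Ab1 and Ciita, against 3.12% of all genes called higher, and limma-voom called 0, with 7 at an unadjusted p under 0.05. The DESeq2 count was 0 without WT mouse 2 or WT mouse 4, 1 without ApoE-/- mouse 4, WT mouse 1 or WT mouse 3, and 2 or 3 without each of the others. Of the 9, 5 did not overlap between the genotypes, against 5.41% of all genes. Their median log2 fold change was 0.81, with a range from 0.66 to 1.12, beside a median of 0.05 over all 15077 genes, of which 58% were above 0. These genes share regulators and most share cells, so the 9 are not 9 independent measurements, and the list was chosen with results of these data known.

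Leaving out single mice moved some of these values. Without ApoE-/- mouse 4 the log2 fold change of H2-Aa was 0.51, that of H2-Eb1 0.38, that of Cd74 0.46 and that of H2-DMb1 0.55, and the median of the members was 0.58. Without ApoE-/- mouse 1, whose library stood apart, 0 of 9 were called, 6 had an unadjusted p under 0.05 and the median was 0.81. The number with an unadjusted p under 0.05 was also 6 of 9 without ApoE-/- mouse 4, and it was lowest, at 4 of 10 (H2-Oa then passed the filter), without WT mouse 3, the lowest WT mouse for 8 of the 10 genes. Ciita kept a log2 fold change between 0.61 and 0.87 and H2-DMb2 between 0.84 and 1.06 whichever mouse was left out.

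**Figure D2:**
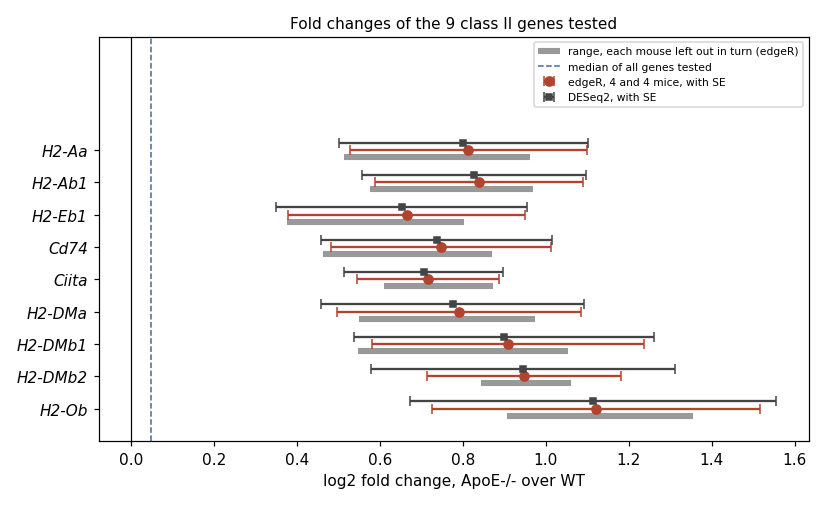
Log2 fold changes (x axis, ApoE-/- over WT) of the 9 class II genes tested, by edgeR (red points, SE bars) and by DESeq2 (dark squares, SE bars), with the range over leaving out each of the 8 mice in turn (grey bars). All values lie above 0 and above the median of all genes (dashed line, 0.05). Ciita and H2-DMb2 have narrow grey bars, and those of the 3 chains, Cd74 and H2-DMb1 reach furthest to the left of their points.

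Levels between genes were compared as CPM per kilobase of exon. Cd74 led with 137 ± 50.1 CPM per kilobase (SD, n = 4) in ApoE-/- and 81.7 ± 17.4 in WT aortas. The chains followed: H2-Eb1 at 40.8 ± 15.6 and 25.7 ± 6.38, H2-Aa at 34.4 ± 13.7 and 19.5 ± 4.15, and H2-Ab1 at 28.9 ± 10.1 and 16.1 ± 3.01. Neighbours among these 3 differed by less than the larger SD in both genotypes, although H2-Aa exceeded H2-Ab1 per kilobase in each of the 8 mice, by 1.11 to 1.26 times. The loading factors were far lower, with H2-DMb1 at 4.29 ± 1.93 and 2.28 ± 0.579 and H2-DMa at 3.16 ± 1.26 and 1.83 ± 0.288, again within the spread of one another. Ciita reached 1.86 ± 0.163 and 1.13 ± 0.256 CPM per kilobase. H2-DMb2, H2-Ob and H2-Oa came last, each below 1 CPM per kilobase in both genotypes, and the order of the 10 genes was the same in ApoE-/- and WT aortas.

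Ratios of genes within 1 library show whether the members differed by the same factor. H2-Aa and H2-Ab1, the partners of the I-A molecule, kept a ratio of counts between 1.64 and 1.83 in ApoE-/- and between 1.71 and 1.86 in WT mice, and this ratio varied by 1.13-fold over the 8 aortas while H2-Aa itself ranged from 52.5 to 204 CPM. H2-Eb1 over H2-Ab1 was 1.10, 0.974, 1.08 and 1.10 in ApoE-/- and 1.32, 1.14, 1.12 and 1.20 in WT mice. Here the groups did not overlap and ApoE-/- mice had the lower ratio. This ratio was singled out after its values were seen and carries no test.

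Cd74 against the summed chains gave a log2 ratio of -0.29 ± 0.15 (SD, n = 4) in ApoE-/- and -0.27 ± 0.06 in WT mice, a difference of -0.02 (two-sided exact permutation test, p = 0.8). The difference changed sign without ApoE-/- mouse 1 (0.023) and without ApoE-/- mouse 2 (0.0016). H2-DM against H2-O had a log2 ratio of 1.94, 2.60, 1.58 and 3.26 in ApoE-/- and 2.35, 3.28, 2.76 and 2.47 in WT mice. The difference was -0.37 (two-sided exact permutation test, p = 0.429), and the lowest ratios belonged to ApoE-/- mice 3 and 1, those with the most H2-Ob. It was -0.11 without ApoE-/- mouse 3, -0.18 without WT mouse 2, -0.24 without ApoE-/- mouse 1 and -0.68 without ApoE-/- mouse 4. Per 1000 chain counts, Ciita gave 65.0, 89.9, 80.8 and 38.5 counts in ApoE-/- and between 54.8 and 70.5 counts in WT mice. ApoE-/- mouse 4 therefore had the most chain RNA and the least Ciita per chain count.

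The chains and Cd74 together made up 0.0508%, 0.0380%, 0.0383% and 0.0762% of gene counts in ApoE-/- mice and 0.0373%, 0.0310%, 0.0215% and 0.0326% in WT mice. The groups did not overlap, with 0.0380% and 0.0373% as nearest values. The means were 0.0508% ± 0.0180 (SD, n = 4) and 0.0306% ± 0.00663, and the two-sided exact permutation test gave p = 0.0286, which is the lower limit of this test with 4 mice in each group. Adjusted over the 4 measures of this kind (this share, both ratios above and the ratio to macrophage markers), p was 0.114 and did not pass. The difference of 0.0202 percentage points was 0.0118 without ApoE-/- mouse 4 (exact permutation p = 0.0571) and 0.0113 for the chains without Cd74 (exact permutation p = 0.0571).

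**Figure D3:**
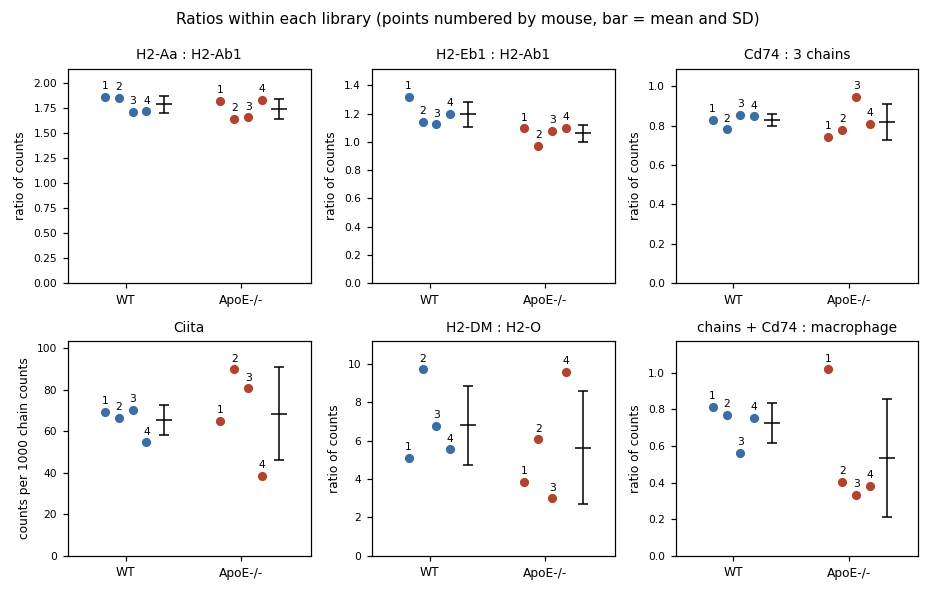
Ratios of counts within each library in WT (blue) and ApoE-/- (red) aortas, with y axes from 0, mouse numbers beside the points and black bars for the mean and SD of 4 mice. H2-Aa over H2-Ab1 was nearly the same in all 8 aortas, H2-Eb1 over H2-Ab1 was lower in ApoE-/- mice, and Ciita per 1000 chain counts ranged from 38.5 to 89.9 among ApoE-/- mice.

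Of the summed markers of macrophages, dendritic cells, B cells and T cells, only those of macrophages did not overlap between the genotypes. Abundant genes weigh most in such sums, so an overlap of sums can hide differences of scarcer markers. In WT aortas Zbtb46 had a mean of 67.1 CPM in a dendritic cell sum of 86.2 CPM. Cr2 had 4.86 CPM in a B cell sum of 9.78 CPM. Of 9 macrophage markers, 8 did not overlap and were higher in ApoE-/- mice (5.41% of all genes), and 1, the Fc receptor gene Fcgr1, passed the edgeR threshold (0.371% of all genes), with 7 in DESeq2 (3.12%). Their summed level was 483, 954, 1161 and 2069 CPM in ApoE-/- mice 1 to 4 and between 381 and 456 CPM in WT mice. ApoE-/- mouse 4 thus had the most macrophage marker RNA as well as the most chain RNA, but ApoE-/- mouse 1 was second for each chain with the lowest macrophage sum of its genotype. Of 8 dendritic cell markers, 6 had a log2 fold change above 0 (58% of all genes), and the median was 0.79. At an unadjusted edgeR p under 0.05, 4 were higher (7.19% of all genes). These were Itgax, Flt3 (1.14), Cd209a (1.31) and Ccr7 (1.19), and Flt3, Cd209a and Ccr7 overlapped between the genotypes. Only 1 of the 8, Itgax, which macrophages also express, was called higher by edgeR. Zbtb46 (-0.42, edgeR adjusted p = 0.18) and Clec9a (-0.37, edgeR adjusted p = 0.207) were lower in mean without overlap, and DESeq2 called Itgax higher and Clec9a lower. edgeR called no gene of the whole table higher without ApoE-/- mouse 3 or without any 1 WT mouse, so the calls of Fcgr1 and Itgax were lost there. The summed dendritic cell markers, mostly Zbtb46 in WT mice, overlapped, at 72.4 to 126.5 CPM in ApoE-/- and 81.6 to 95.9 CPM in WT mice.

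Of 6 B cell markers edgeR called 0, with 3 at an unadjusted p under 0.05 and 0 in DESeq2. Their sum was 19.6, 12.1, 21.5 and 9.59 CPM in ApoE-/- and 8.54 to 10.96 CPM in WT mice. ApoE-/- mice 1 and 3 were highest in this sum and in H2-Ob. Of 6 T cell markers 5 were tested and edgeR called 0, with 2 at an unadjusted p under 0.05 and 0 in DESeq2, and their sum was 4.50 to 10.03 CPM in ApoE-/- and 2.77 to 5.09 CPM in WT mice. No marker of these 4 lists was at 0 in any mouse. The part of these cells in the class II differences was not tested.

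Against the macrophage markers, the chains and Cd74 gave a log2 ratio of 0.03, -1.30, -1.58 and -1.39 in ApoE-/- and -0.30, -0.38, -0.83 and -0.41 in WT mice. In 3 of 4 ApoE-/- mice class II RNA was lower per unit of macrophage marker RNA than in any WT mouse, and in ApoE-/- mouse 1 it was higher than in all of them. The difference was -0.58 (two-sided exact permutation test, p = 0.143). It was -0.95 without ApoE-/- mouse 1 (exact permutation p = 0.0286, unadjusted and the lower limit of the test for the mice left). It was -0.17 when Lyz2 and Cd68 were left out of the markers (exact permutation p = 0.657), so the difference depends on both. Counted per kilobase of exon it was -0.91 (exact permutation p = 0.143).

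Other lists concern the rest of the aorta. The sum of 6 cardiac muscle markers was 19.9 to 116 CPM in ApoE-/- and 201 to 452 CPM in WT mice, without overlap. All 6 were lower in mean without overlap, with a median log2 fold change of -2.90, and edgeR called 0 (all 6 had an unadjusted p under 0.05) and DESeq2 4 of them. Over all 15077 genes DESeq2 called 725 in either direction, 470 of them higher. How many of all genes were lower without overlap was not counted, here or for the dendritic cell markers. DESeq2 also called the skeletal muscle marker Ckm lower (-1.54). The sums of the smooth muscle, endothelium, skeletal muscle, adipocyte and erythrocyte markers overlapped between the genotypes. The adipocyte sum was 4071, 2316, 1475 and 7061 CPM in ApoE-/- mice 1 to 4, and the erythrocyte sum 153, 59.7, 20.9 and 282 CPM. Both had the order of mice seen for H2-Aa, with mouse 4 highest and mouse 3 lowest. Among WT mice both sums were highest in mouse 4, whereas H2-Aa was highest in mouse 1. The part of fat and blood in the class II differences was not tested. All 4 endothelium markers had a log2 fold change below 0, and edgeR called 0 of them, with 2 at an unadjusted p under 0.05. Cdh5 (-0.37, DESeq2 adjusted p = 0.00303) and Kdr (-0.79, DESeq2 adjusted p = 0.00247) did not overlap between the genotypes and were called lower by DESeq2.

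**Figure D4:**
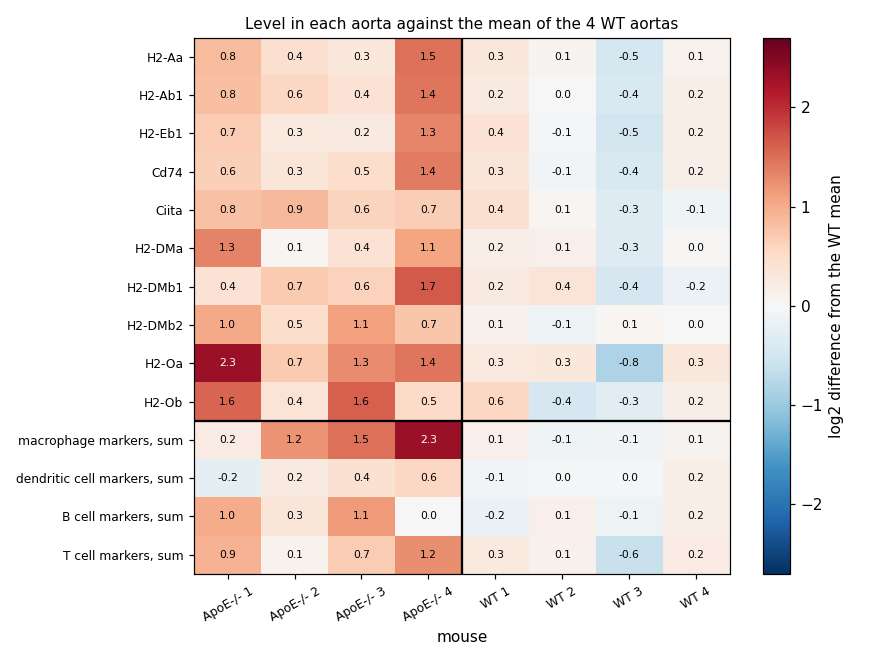
Log2 level of each class II gene (CPM plus 0.1) and of the summed markers of 4 immune cell types in each aorta, minus the mean of the 4 WT aortas (columns are mice, red is higher and blue lower). The chains, Cd74 and macrophage markers are reddest in ApoE-/- mouse 4, H2-Ob and the B cell markers in ApoE-/- mice 1 and 3, and Ciita differs little among ApoE-/- mice.

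The regulators upstream of the promoters were read as a list of 16, of which 15 were tested. The edgeR test called 0 of them, with 3 at an unadjusted p under 0.05, and the median log2 fold change was 0.00. The 7 genes of the complex on the X and Y boxes (Rfx5, Rfxap, Rfxank, Creb1, Nfya, Nfyb and Nfyc) lay between -0.22 and 0.07. Irf1, Ifngr1, Jak1 and Jak2, which take part in interferon gamma signalling, lay between -0.13 and 0.15. Ifng itself had between 0 and 3 counts per library in ApoE-/- and WT mice and was not tested.

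DESeq2 called 3 genes of this list, all higher (3.12% of all genes): Irf8, Spi1 and Ifngr2. Irf8, a transcription factor of macrophages, dendritic cells and B cells, was measured at 16.8, 13.6, 17.6 and 22.4 CPM in ApoE-/- and at 7.04 to 9.55 CPM in WT mice, with a log2 fold change of 1.10 ± 0.19 (edgeR adjusted p = 0.0526). Spi1, the myeloid and B cell factor PU.1, had a log2 fold change of 1.59 ± 0.32 (edgeR adjusted p = 0.0705). Ifngr2, a chain of the interferon gamma receptor, had 0.50 ± 0.13 (edgeR adjusted p = 0.136). Without ApoE-/- mouse 1, edgeR called 3 genes of the list.

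Among 8 genes of invariant chain and antigen processing with a row, 1 was called by edgeR and 5 by DESeq2, all higher (0.371% and 3.12% of all genes), and the median log2 fold change was 0.93. The called gene, Lgmn, encodes legumain, an asparaginyl protease of lysosomes. It was measured at 173, 132, 202 and 258 CPM in ApoE-/- and at 65.9 to 81.9 CPM in WT mice, with a log2 fold change of 1.35 ± 0.20 (edgeR adjusted p = 0.0396). Ctss, the cathepsin that makes the last cuts in the invariant chain, had 45.0, 129, 121 and 323 CPM in ApoE-/- and 9.14 to 19.6 CPM in WT mice, without overlap, and a log2 fold change of 3.37 ± 0.58 (edgeR adjusted p = 0.0526). Ctsl, Ctsb and Ctsd, also called by DESeq2, had 1.17, 0.99 and 0.87. Sppl2a, which cleaves the final remnant in the membrane, had -0.03 ± 0.10 (edgeR adjusted p = 0.96). Macrophages express these proteases abundantly. In edgeR, 3 genes of the list were called without ApoE-/- mouse 1, and 0 without ApoE-/- mouse 3, ApoE-/- mouse 4 or any WT mouse.

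The list of class II turnover and the T cell side held 7 genes, 4 of them also T cell markers, and 6 were tested. The edgeR test called 0, with 3 higher at an unadjusted p under 0.05 (7.19% of all genes). DESeq2 called 1 higher, Marchf1 (3.12% of all genes). Marchf1, a ubiquitin ligase that removes class II from the cell surface, was measured at 8.24, 11.7, 13.1 and 22.3 CPM in ApoE-/- and at 4.27 to 6.01 CPM in WT mice, with a log2 fold change of 1.41 ± 0.30 (edgeR adjusted p = 0.0818). Cd4, the co-receptor for class II, had 1.31 ± 0.43 (edgeR adjusted p = 0.259), and Lag3, an inhibitory receptor for class II, had -0.31 ± 0.20 (edgeR adjusted p = 0.677).

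MHC class I, which presents peptides from inside the cell and is made by nearly all cells, differed less in median. Of 16 genes, edgeR and DESeq2 called 0, and 1, Tapbp, had an unadjusted edgeR p under 0.05. All 16 log2 fold changes lay between 0.02 and 0.38, with a median of 0.25 beside 0.81 for class II. Tapbp, which loads class I peptides, had 0.33 ± 0.12 (edgeR adjusted p = 0.314), and Nlrc5, the class I counterpart of Ciita, had 0.37 ± 0.19 (edgeR adjusted p = 0.565). Whether the lists differ from each other was not tested.

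**Figure D5:**
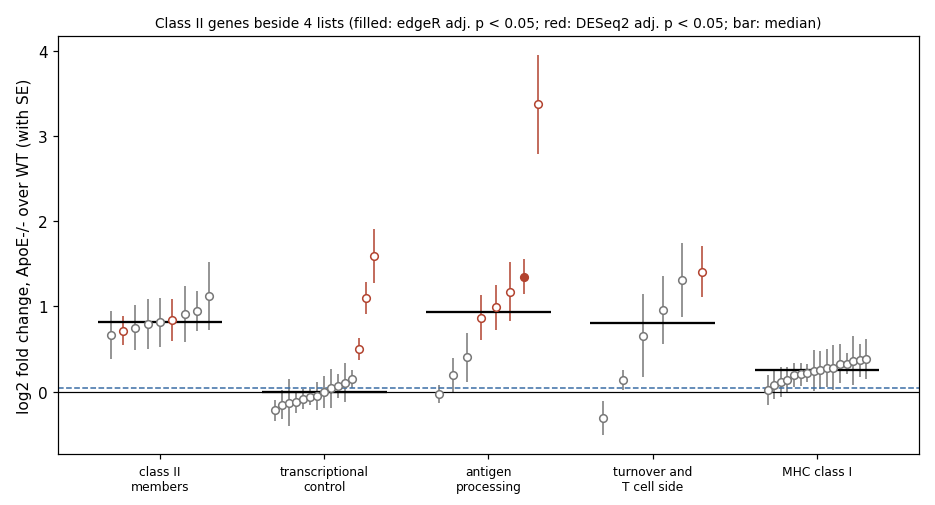
Log2 fold changes (y axis, ApoE-/- over WT, SE bars) of the tested class II genes and of 4 lists of related genes. A filled point passed the edgeR threshold, red points passed that of DESeq2, black bars are list medians and the dashed line is the median of all genes. The 9 class II genes lie between 0.66 and 1.12, the class I genes between 0.02 and 0.38, and Ctss reaches 3.37.

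The block of chromosome 17 that holds the class II genes also holds 5 other genes with a row, all tested. Tap1, Psmb8, Psmb9 and Tap2, of class I presentation, lay at log2 fold changes of 0.38, 0.36, 0.28 and 0.20, and Brd2, a chromatin reader next to H2-DMa, at -0.13. Of the 5, edgeR called 0, DESeq2 called 0 and 0 had an unadjusted edgeR p under 0.05. The 7 tested class II genes of the block had a median of 0.84 and these 5 neighbours a median of 0.28.

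The genes outside the list whose pattern over the 8 aortas came closest to the mean of the 3 chains were Rgs14, Tmem268, Cd69, Bmper and Ptges. Likeness was the root mean square of the differences in centred log2 CPM, between 0.17 and 0.18 for these genes, beside a median of 0.59 over all genes. Cd74 was closer than any of them, at 0.10. H2-DMb1 followed at rank 87 and H2-DMa at rank 105, while Ciita stood at rank 414, H2-DMb2 at rank 1855 and H2-Ob at rank 9488 of 15077. Among the 9 tested members, the pattern of the chains over the mice was thus shared closely by Cd74 and least by H2-Ob. The value of H2-Ob, 0.65, was above the median of all genes. H2-Ob had 21 to 110 counts per library, and counting noise adds to this measure. Rgs14 and Cd69 were also low, with means of 2.50 and 0.93 CPM in ApoE-/- aortas. H2-Oa was not ranked.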

How the data were processed

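For each aorta the authors deposited unnormalized counts, the read pairs on each gene of a stranded, ribodepleted total RNA library. The submitters' processing notes name TopHat2, HTSeq and GRCm38 (mm10), and versions and annotation are not given in the sources used here. Pairs on genes were 32.3% to 35.6% of all pairs in ApoE-/- and 27.9% to 30.2% in WT files, and the remaining pairs, on rows that name no gene, were left out. Genotypes came from the labels. With R 4.3.3, filterByExpr of edgeR 4.0.16 kept 15077 genes. TMM factors and the quasi-likelihood test (robust, genotype as the only factor, two-sided) were used, with Benjamini-Hochberg adjustment and a threshold of 0.05. An SE is the fold change divided by the square root of F. DESeq2 1.42.0, limma-voom (limma 3.58.1), other factors and filters, a block for the replicate number, and fits without each mouse were alternatives. Exact permutation tests over 70 assignments compared values that each mouse gave once. With a mouse left out there were fewer assignments. The test was tried on simulated data. Exon lengths came from GENCODE M21.

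The members and lists were chosen with earlier results of these data known. The genes named were the members, H2-Eb2, Apoe, each called gene of a list or else its gene with the smallest p, and the 5 most similar genes. Others were chosen after their values were seen. Values of 1 gene of a list are not reported here.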

Additional observations from a re-analysis of the deposited data

Results flagged for a closer look

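In 2 of 28 groups of 4 mice (10 genes as CPM and 4 measures, in each genotype), 1 mouse stood apart by the 95% critical value of Dixon's test. Chance gives about 1 such group in 20, or 1.4 of 28. H2-DMb1 in ApoE-/- mouse 4, at 12.0 CPM against 4.91 to 6.12 CPM in the other ApoE-/- mice, had a gap of 0.83 of the range of its group. H2-Oa in WT mouse 3, at 0.0554 CPM against 0.229 to 0.239 CPM, had a gap of 0.946 of the range, and this level is 1 count beside 5 in each other WT mouse.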

How the results depend on the processing

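The direction held throughout: all 144 alternative log2 fold changes of the 9 tested members were above 0. No member was called by limma-voom, or by edgeR under the scalings, filters and left-out mice tried. DESeq2 called 2 members, H2-Ab1 (0.83, adjusted p = 0.0449) and Ciita (0.71, adjusted p = 0.00821), and between 0 (without WT mouse 2 or 4) and 3 when each mouse was left out, an alternative chosen after seeing the data. DESeq2 called 725 genes, 3 of the transcriptional control list, 5 of the antigen processing list and 1 of the turnover and T cell side list, and limma-voom called 29 genes, against 70 in edgeR. Leaving out each mouse moved the edgeR count of genes between 0 (without ApoE-/- mouse 3, WT mouse 2 or WT mouse 4) and 593 (without ApoE-/- mouse 1), with 2 without ApoE-/- mouse 4, 2 without WT mouse 1, 1 without WT mouse 3 and 17 without ApoE-/- mouse 2. The same alternatives gave 0 to 3 genes of the transcriptional control list, 0 to 3 of antigen processing and 0 to 1 of turnover and T cell side. The causes were not tested.

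The difference in the share of chains and Cd74 ranged from 0.0118 percentage points (without ApoE-/- mouse 4) to 0.0245, with an exact permutation p between 0.0286 and 0.114, and was 0.0113 for the chains alone (exact permutation p = 0.0571). Leaving out a mouse, the Cd74 to chain difference ran from -0.094 to 0.023 on the log2 scale and that of class II to macrophage markers from -0.95 to -0.41.

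The genotypes share replicate numbers but not mice. Same-numbered mice had residual correlations from -0.45 to 0.32, above 0.1 in 2 of 4 pairs, and 1 of 4 correlated best with its own number. With the replicate number as a block, edgeR called 2 genes and 0 members, although all 9 tested members had an unadjusted p under 0.05.

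Precision is limited by 4 mice in a group, with an SE of 0.17 to 0.39 for the log2 fold changes of the members. H2-Oa and H2-DMb2 rest on 1 to 34 counts per library.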

Other observations

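H2-Eb2, a second I-E beta gene next to H2-Eb1, had 14, 9, 13 and 6 counts in ApoE-/- mice 1 to 4 and 4, 2, 1 and 5 counts in WT mice 1 to 4. All ApoE-/- values were above all WT values, also as CPM (0.260 to 0.568 against 0.0554 to 0.239). It was too low for the test. With every detected gene tested, its log2 fold change was 1.58 ± 0.49 (edgeR adjusted p = 0.252). The ratio of H2-DMb1 to H2-DMb2 counts was 3.56, 6.67, 3.91 and 10.7 in ApoE-/- mice and 4.08 to 8.58 in WT mice, so the widest and the narrowest ratio were both in ApoE-/- mice.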
